A study of Mus musculus with 15 samples.

Results

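A set of 38 genes for enzymes and partner proteins that add acetyl groups to histones, add methyl groups to lysine 4 of histone H3, or remove methyl groups from histones was followed in sorted nuclei of the mouse ventral tegmental area. The genes were taken by name from a table of read counts that lists 35976 genes, and all 38 were found in it. They comprise 9 acetyltransferases, 13 genes on the methyltransferase side and 16 demethylases of the KDM2 to KDM7 families.

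Acetylation of histone tails loosens chromatin and is read by bromodomain proteins. Crebbp and Ep300, the KAT3 enzymes, are recruited by CREB and other activity-regulated factors, while the GNAT enzymes (Kat2a, Kat2b) and the MYST enzymes (Kat5, Kat6a, Kat6b, Kat7, Kat8) work inside large multi-subunit complexes. Methylation of H3 lysine 4 is laid down at promoters and enhancers by the KMT2 and SET1 enzymes, which need a shared core of Wdr5, Rbbp5, Ash2l and Dpy30 in assemblies called COMPASS. The demethylases take methyl groups off again: the KDM5 family acts on lysine 4, the KDM3 and KDM4 families mainly on the repressive lysine 9 mark, and the KDM6 family on lysine 27. In neurons these enzymes are studied for their part in lasting changes of gene expression after drug exposure.

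All samples came from male heterozygous DAT-Cre mice (B6.SJL-Slc6a3tm1.1(cre)Bkmm/J), 8 to 12 weeks old, which carry Cre recombinase at the dopamine transporter gene. Each mouse had received the Cre-dependent virus AAV5-DIO-KASH-HA in the ventral tegmental area 14 days before training, so that nuclei of infected Cre-positive cells carried an HA tag. Tissue of 2 mice was pooled per sample, and nuclei were sorted as HA-positive (labelled dopaminergic, DA) or HA-negative (labelled non-dopaminergic, nDA). The food-trained group (FT) had learned over 7 days to press a lever for food and had no cocaine, and both its DA nuclei (4 libraries) and its nDA nuclei (4 libraries) were sequenced. The maintenance group (MN, 3 libraries of DA nuclei) had the same training and then took intravenous cocaine in daily 1-hour sessions, with 0.3 mg/kg per infusion for 5 days and 1.0 mg/kg for 10 days. The abstinence group (CRV in the labels, 4 libraries of DA nuclei) had the same 15 days of cocaine followed by 21 days without it in the home cage. No saline or time-matched group was among the samples, so cocaine, handling and elapsed time cannot be told apart between stages.

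Total counts ran from 25813697 to 59046618 a library, and every one of the 38 genes passed the filter on low counts in both fits. Levels are given as CPM, the count scaled to the effective library size, and, where genes are compared with each other, as CPM per kilobase of the longest annotated transcript. The summed level of 10 dopamine neuron genes was 6582 to 12397 CPM in FT DA libraries and 351 to 535 CPM in FT nDA libraries. The nDA label names neurons, but 8 oligodendrocyte genes summed to 9106 to 22164 CPM there, against 1720 to 2791 CPM in FT DA libraries. The 3 MN libraries and nDA replicate 2 stood apart from the rest in how log2 CPM followed the GC content of transcripts. The slope was -0.0379 to -0.0225 per percent GC in MN and -0.0247 in nDA replicate 2, against -0.0166 to 0.0205 in the other DA libraries and 0.0210 to 0.0324 in the other nDA libraries. Among the 38 genes, nDA replicate 2 lay outside the range of the other 3 nDA libraries in 28 (73.7%), and it did so in 66.0% of all genes tested.

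The RefSeq promoter table (build GRCm38.p6) held 27 of the 38 genes. The 250 bases before the first start site listed for each gene had a median GC content of 58.4% and a median of 15 CpG dinucleotides in these genes, against 52.4% and 6 over 32851 promoters, which count every listed start site of every gene. The window is printed for 4 genes to which the comparisons return: Kdm3a, the gene that passed the test between populations, Kmt2a and Dpy30, whose maintenance and abstinence libraries did not overlap, and Kat8, whose food-trained and abstinence libraries did not overlap. Only bases outside the annotated gene are shown, 5′ to 3′ on the gene's strand, with GC boxes (GGGCGG or CCGCCC) and CCAAT boxes (CCAAT or ATTGG) in capitals. Their positions are chr6:71632991-71633167 for Kdm3a (minus strand), chr9:44881353-44881539 for Kmt2a (minus strand), chr17:74323945-74324194 for Dpy30 (minus strand) and chr7:127912267-127912516 for Kat8 (plus strand).
Kdm3a: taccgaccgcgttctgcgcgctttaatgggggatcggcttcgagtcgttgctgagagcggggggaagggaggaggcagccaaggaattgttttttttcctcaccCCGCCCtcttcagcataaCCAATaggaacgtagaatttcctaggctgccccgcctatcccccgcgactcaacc
Kmt2a: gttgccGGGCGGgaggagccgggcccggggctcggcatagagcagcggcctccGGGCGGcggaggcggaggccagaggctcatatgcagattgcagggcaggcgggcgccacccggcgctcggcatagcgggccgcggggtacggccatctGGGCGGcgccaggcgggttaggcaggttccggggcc
Dpy30: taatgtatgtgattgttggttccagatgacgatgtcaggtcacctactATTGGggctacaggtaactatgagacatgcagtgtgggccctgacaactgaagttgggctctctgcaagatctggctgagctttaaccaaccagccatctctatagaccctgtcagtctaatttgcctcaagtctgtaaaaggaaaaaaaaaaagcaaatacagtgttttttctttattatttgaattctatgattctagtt
Kat8: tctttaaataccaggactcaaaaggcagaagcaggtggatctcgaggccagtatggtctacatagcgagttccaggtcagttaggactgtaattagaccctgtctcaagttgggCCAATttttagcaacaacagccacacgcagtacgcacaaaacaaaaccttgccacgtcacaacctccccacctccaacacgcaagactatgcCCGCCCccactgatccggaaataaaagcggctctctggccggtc

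The 4 windows differ in base composition. That of Kmt2a has 77.0% GC, 23 CpG dinucleotides and 3 GC boxes in 187 bases, while that of Dpy30 has 40.0% GC, 1 CpG and 0 GC boxes in 250 bases. The Dpy30 window is that of the first of 4 annotated start sites, and the windows before the other 3, which lie inside the gene, have 66.0%, 68.0% and 71.6% GC with 21, 28 and 34 CpG dinucleotides. The contrast with Kmt2a, which has 1 start site in the table, therefore holds for that start site alone. Kdm3a has 3 start sites in the table and Kat8 has 2, and the first is shown for both. Kdm3a (57.6% GC, 177 bases) and Kat8 (51.2% GC, 250 bases) each hold 1 GC box and 1 CCAAT box. Searched on both strands in the full window of 250 bases, the GC box was present in 14 of the 27 genes and in 32.7% of all promoters, and the CCAAT box in 10 of the 27 and in 33.8%. The CRE octamer TGACGTCA, the site of CREB, was found in 1 of the 27 genes, Phf8, and in 1.55% of all promoters. The shorter site TGACG, which is part of that octamer, was in 11 of the 27 and in 17.8% of all promoters. The E-box CACGTG was in 2 of the 27 (6.02% of all), the ETS core CCGGAAG in 2 (6.91%) and the NRF1 site in 0 (0.782%). These are matches of letters in 1 window and say nothing of binding.

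Per kilobase of transcript, the levels of the 38 genes in FT DA nuclei spanned 1.04 to 38.5 CPM per kb. The highest was Kmt2e, a SET-domain protein that binds methylated H3 lysine 4, at 38.5 ± 7.84 CPM per kb (SD, n = 4). Next came Kmt2a, the MLL1 methyltransferase, at 31.8 ± 11.9, the small core subunit Dpy30 at 30.3 ± 10.6, Ash1l, a methyltransferase of the Trithorax group, at 27.6 ± 8.92, and the lysine 4 demethylase Kdm5a at 24.4 ± 8.84 CPM per kb. The lowest were Kat6a (MOZ) at 1.04 ± 0.573, Phf2 at 2.09 ± 0.365 and Kmt2b at 2.86 ± 0.577 CPM per kb. Neighbours in this order could not be separated: in 0 of 37 neighbouring pairs did the 4 libraries of one gene all lie above those of the next. In nDA nuclei Kmt2e was again highest, at 40.4 ± 7.98 CPM per kb (n = 4), and the rank correlation of the levels with those in DA nuclei was 0.872 across the 38 genes, which share libraries and transcript lengths. Some genes had other places in the order: Kat2a was at rank 21 in DA and rank 3 in nDA nuclei, and Setd1a at rank 19 in DA and rank 34 in nDA nuclei.

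**Figure D1:**
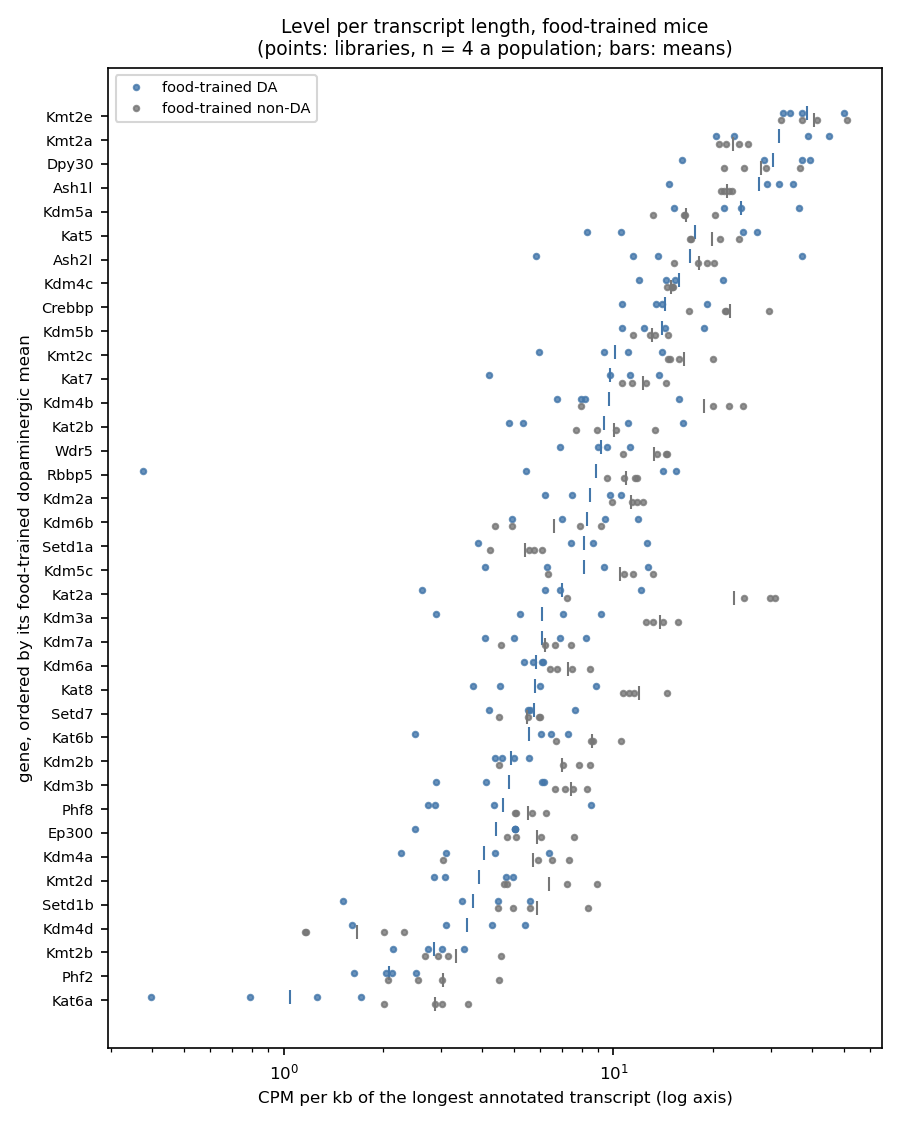
Level of each of the 38 genes per kilobase of its longest annotated transcript (CPM per kb, log axis) in food-trained DA libraries (blue) and food-trained nDA libraries (grey), with points for the 4 libraries of each population and bars for their means. Kmt2e is at the top with 38.5 CPM per kb and Kat6a at the bottom with 1.04 CPM per kb in DA nuclei.

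By role, the acetyltransferases covered a wide range in FT DA nuclei. Crebbp stood at 14.3 ± 3.59 CPM per kb and its relative Ep300 at 4.40 ± 1.27, and within the MYST group Kat5 (Tip60) stood at 17.7 ± 9.65 against 1.04 for Kat6a. The KMT2 and SET1 methyltransferases ran from 2.86 to 31.8 CPM per kb with a median of 6.03, and the 4 core subunits from 8.85 (Rbbp5) to 30.3 (Dpy30) with a median of 13.1. Among the demethylases the KDM5 family was highest, from 8.11 (Kdm5c) to 24.4 (Kdm5a), and the KDM7 family lowest, from 2.09 (Phf2) to 6.06 (Kdm7a). Kdm4c, at 15.8 ± 4.08, was the highest of the KDM4 family, and Kdm4d, at 3.59 ± 1.61, the lowest. Whether close copies of a gene shared reads was not tested.

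Libraries of one group differed more in DA than in nDA nuclei. The median coefficient of variation of the 38 genes was 36.2% in FT DA, 38.6% in MN, 25.4% in CRV and 17.9% in FT nDA libraries. Over 11551 genes in the same range of levels it was 41.6%, 37.9%, 29.5% and 20.6%, so the spread of the 38 genes was near that of other genes. The steadiest were Kdm6a in FT DA (6.01%), Ash1l in MN (7.71%), Rbbp5 in CRV (7.96%) and Kdm4c in nDA libraries (1.93%). The most variable were Ash2l in FT DA (81.6%), Phf2 in MN (121%), Kat6a in CRV (76.0%) and Kat2a in nDA libraries (47.2%). Single libraries with very low values were part of this: Rbbp5 stood at 1.27 CPM in FT DA replicate 2 against 18.4 to 52.5 CPM in the other 3, and Phf2 at 0.543 CPM in MN replicate 2, from 18 counts.

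**Figure D2:**
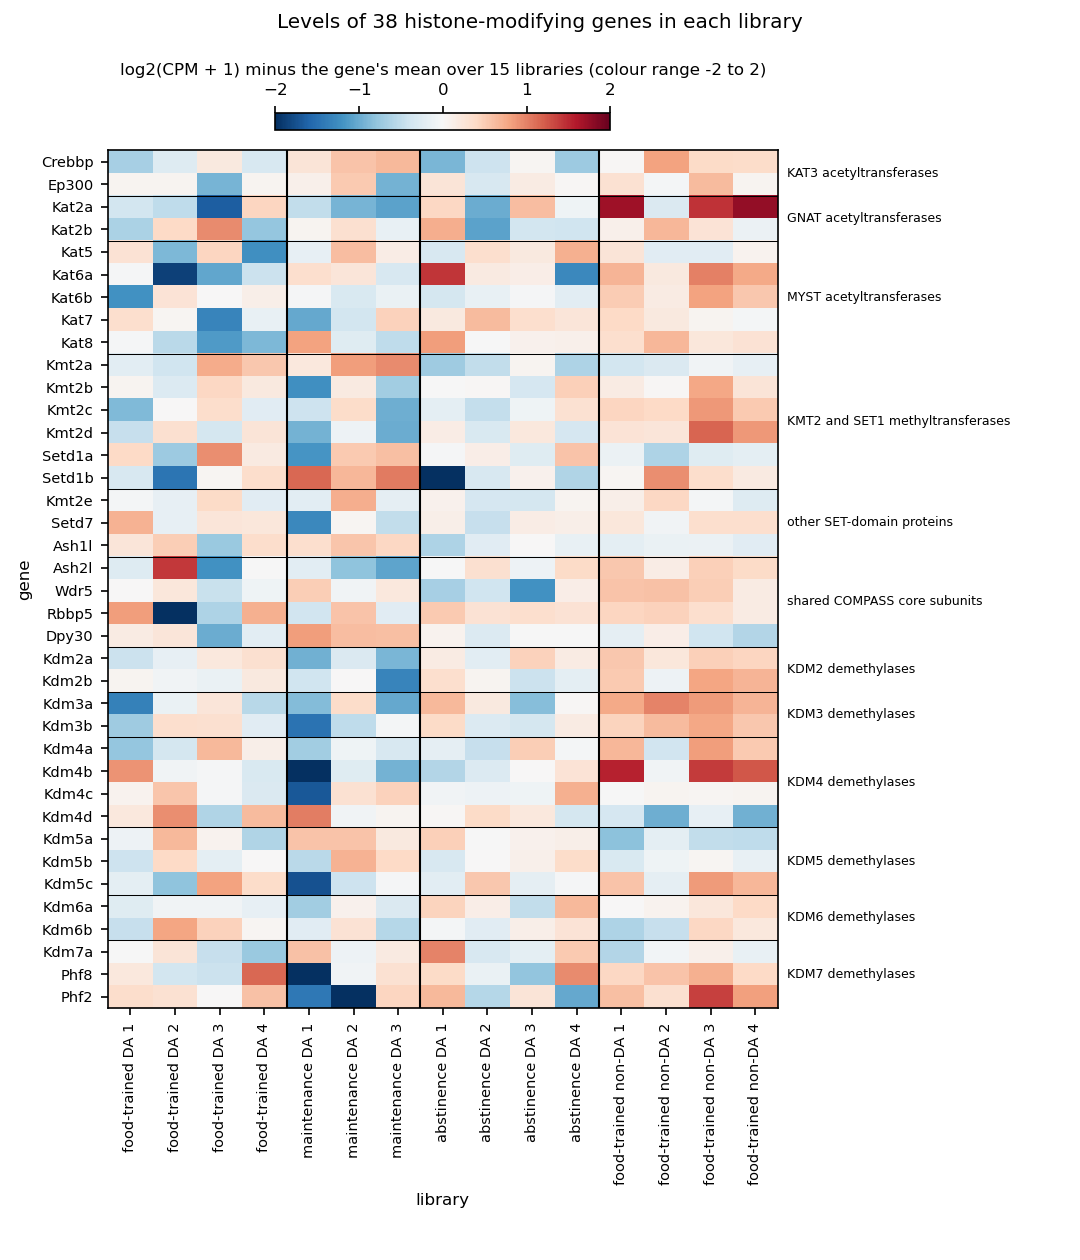
Each of the 38 genes (rows, grouped by role) in each of the 15 libraries (columns), as log2(CPM + 1) minus the gene's mean over the 15 libraries, with the colour range from -2 to 2. Crebbp, Setd1b and Dpy30 are high in all 3 maintenance libraries, and Kat2a and Kdm4b are high in nDA replicates 1, 3 and 4 and not in nDA replicate 2.

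In food-trained mice the tagged and untagged nuclei were compared first. Kdm3a, a demethylase of H3 lysine 9, was lower in DA than in nDA nuclei and was the 1 gene of the 38 to pass at an adjusted p under 0.05, by edgeR (quasi-likelihood test, Benjamini-Hochberg adjustment over 19786 genes). Over all genes tested, 12.8% passed. At an unadjusted p under 0.05 there were 9 of the 38 genes, all lower in DA nuclei, while of all genes 15.3% were lower and 9.06% higher at that level. In the fit 28 of the 38 were lower and 10 higher, with a median log2 fold change of -0.35, against 58.3% of all genes lower and a median of -0.21. That background moved with the fit: with the replicate block 13618 of 19786 genes were lower and the median of all genes was -0.60, against -0.46 for the 38, and with limma-voom the medians were -0.63 and -0.46. In those fits the median of the 38 was thus above that of all genes, and no shift of the 38 beyond other genes can be read from it. Oligodendrocyte, astrocyte and microglia genes were lower in DA nuclei too. The 6 astrocyte genes summed to 741 to 938 CPM against 1430 to 3014 CPM, and the 5 microglia genes to 483 to 722 CPM against 1205 to 2380 CPM. The part of these cell types in the differences of the 38 genes was not tested, and in bulk samples fewer cells of a type and less RNA per cell cannot be told apart.

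Kdm3a stood at 14.0, 34.1, 44.6 and 25.3 CPM in FT DA replicates 1 to 4 and at 63.9, 75.9, 68.5 and 60.7 CPM in nDA replicates 1 to 4. All 4 DA libraries lay below all 4 nDA libraries. The log2 fold change was -1.21 (SE 0.33, edgeR adjusted p 0.0444). Whether equal replicate numbers pair a DA with an nDA library is not known. With the number as a block, as if they did, the log2 fold change was -1.33, at an edgeR adjusted p of 0.0759, so the call was lost. In a fit of all 15 libraries Kdm3a had an edgeR adjusted p of 0.0730 and did not pass, and Kat2a passed in its place (0.0450). The Kdm3a call was also lost in edgeR fits without FT DA replicate 2 (adjusted p 0.0573) or 4 (0.0804), or without nDA replicate 1 (0.108), 2 (0.0973), 3 (0.116) or 4 (0.0835), with log2 fold changes from -1.29 to -1.15 in these fits. With DESeq2 size factors or upper quartile scaling Kdm3a did not pass either. Its close relative Kdm3b stood at 18.4, 39.2, 38.7 and 26.1 CPM in DA and at 42.4, 48.0, 53.0 and 45.3 CPM in nDA replicates 1 to 4, again without overlap (log2 fold change -0.65, SE 0.28, edgeR adjusted p 0.200).

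Among the acetyltransferases, all 9 were lower in DA nuclei in the fit, as were 58.3% of all genes, and 4 were lower at an unadjusted p under 0.05, as were 15.3% of all genes. Kat2a (GCN5, the catalytic subunit of SAGA and ATAC) stood at 22.5, 20.3, 8.59 and 39.6 CPM in DA and at 97.2, 23.6, 81.1 and 101 CPM in nDA replicates 1 to 4. The groups overlapped through nDA replicate 2, the library that stood apart in GC slope. Over all libraries the log2 fold change was -1.76 (SE 0.55, edgeR adjusted p 0.0727), and it was -2.06 without nDA replicate 2 (edgeR adjusted p 0.0232) and -2.18 without FT DA replicate 4 (0.0348). It reached -1.46 in the other fits that leave out a library, and passed in none of them. Kat6a was low in both populations, at 15.6, 3.62, 7.23 and 11.5 CPM in DA and 26.2, 18.4, 32.9 and 27.6 CPM in nDA replicates 1 to 4, with no overlap. Its log2 fold change was -1.49 (SE 0.49, edgeR adjusted p 0.0897), and -1.84 without FT DA replicate 1 (edgeR adjusted p 0.0412). It ran from -1.84 to -1.22 over the 8 fits that leave out 1 library, and passed in that 1 fit alone. Kat8 (MOF), which acetylates lysine 16 of histone H4, stood at 13.9, 9.46, 5.91 and 7.17 CPM in DA and 18.2, 23.0, 16.8 and 17.6 CPM in nDA replicates 1 to 4. Here, too, the groups did not overlap (log2 fold change -1.07, SE 0.42, edgeR adjusted p 0.146).

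Crebbp stood at 115, 152, 208 and 145 CPM in DA and at 184, 319, 237 and 235 CPM in nDA replicates 1 to 4. DA replicate 3 lay above nDA replicate 1, so the groups overlapped. The log2 fold change was -0.68 (SE 0.24, edgeR adjusted p 0.109), and -0.83 without FT DA replicate 3 (edgeR adjusted p 0.0391). Over the 8 fits it ran from -0.83 to -0.53 and passed in that 1 alone. Its relative Ep300 stood at 48.2, 48.1, 23.9 and 48.3 CPM in DA and 57.5, 45.4, 72.8 and 48.4 CPM in nDA replicates 1 to 4, and the groups overlapped (log2 fold change -0.44, SE 0.29).

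On the methyltransferase side the genes were divided. Kmt2c (MLL3), one of the pair of enzymes that mark enhancers, stood at 89.2, 165, 210 and 140 CPM in DA and 222, 219, 300 and 237 CPM in nDA replicates 1 to 4, without overlap. Its log2 fold change was -0.72 (SE 0.26, edgeR adjusted p 0.125), and -0.89 without FT DA replicate 3 (edgeR adjusted p 0.0410). It reached -0.54 in the other fits that leave out a library, none of which called it. The other enzyme of that pair, Kmt2d (MLL4), stood at 56.6, 98.2, 61.0 and 93.8 CPM in DA and at 94.3, 92.2, 177 and 143 CPM in nDA replicates 1 to 4, with overlap (log2 fold change -0.74, SE 0.29, edgeR adjusted p 0.158). Kmt2a, Setd1a and Ash1l were on the other side, with log2 fold changes of 0.44 (SE 0.27), 0.57 (SE 0.34) and 0.31 (SE 0.26), and none of them passed the test. Without FT DA replicate 3, Ash1l stood at 0.54 on that scale, at an edgeR adjusted p of 0.0417, and it passed in none of the other 7 fits. Of the core subunits 3 were lower and 1 higher in the fit, from -0.56 (Wdr5, SE 0.25) to 0.09 (Dpy30, SE 0.36), and 0 of the 4 had an unadjusted p under 0.05.

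Of the 16 demethylases, Kdm3a, Kdm3b and Kdm4b were lower at an unadjusted p under 0.05, near the 15.3% of all genes. Kdm4b, a demethylase of lysine 9, stood at 72.4, 36.5, 37.6 and 30.9 CPM in DA and at 113, 36.4, 103 and 91.5 CPM in nDA replicates 1 to 4. As with Kat2a, nDA replicate 2 lay in the range of the DA libraries and the other 3 lay above all of it. The log2 fold change was -0.98 (SE 0.40, edgeR adjusted p 0.165), and -1.24 without nDA replicate 2 (edgeR adjusted p 0.0394). Leaving out each library gave -1.33 to -0.79, with no call in the other 7 fits. Kdm5a and Kdm4d were on the higher side, with log2 fold changes of 0.53 (SE 0.27) and 1.08 (SE 0.63), and did not pass. Kdm6a (UTX), a demethylase of lysine 27 on the X chromosome, stood at 31.8, 36.2, 36.1 and 33.8 CPM in DA and 38.1, 39.9, 44.5 and 50.4 CPM in nDA replicates 1 to 4, without overlap. Its log2 fold change was -0.35 (SE 0.20), at an edgeR adjusted p of 0.349.

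**Figure D3:**
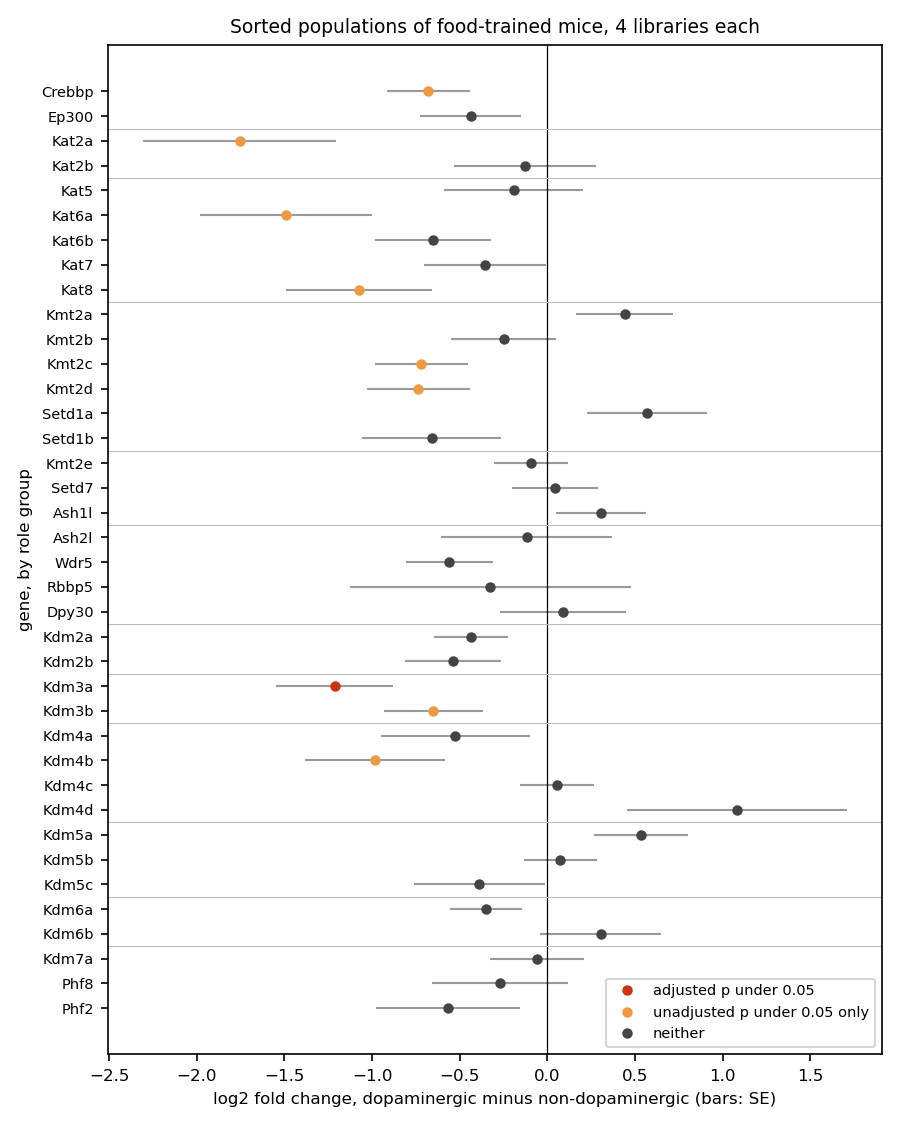
Log2 fold change of each of the 38 genes between DA and nDA nuclei of food-trained mice (horizontal axis, DA minus nDA, bars for the standard error, 4 libraries a population), in the order of their roles. Kdm3a at -1.21 passes the adjusted threshold, and 8 other genes, all left of 0, pass without adjustment.

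In 6 of the 38 genes the 4 DA and the 4 nDA libraries did not overlap, and in all 6 the DA libraries were the lower. Of all genes tested 25.9% did not overlap, 19.1% with DA libraries lower and 6.87% with DA libraries higher. They were Kdm3a, Kat6a, Kmt2c, Kat8, Kdm3b and Kdm6a. The count of genes without overlap was 10 without FT DA replicate 2 (32.6% of all genes), 11 without FT DA replicate 4 (33.8%) and 13 without nDA replicate 2 (32.3%), near or below the share of all genes. With upper quartile scaling the count was lower, at 3. The count of genes past the adjusted threshold was 4 without FT DA replicate 3 (3740 of all 20828 genes). It was 2 without FT DA replicate 1 (3182 of 20698) or nDA replicate 2 (2427 of 20194). It was 0 without FT DA replicate 2 (3120 of 20806) or nDA replicate 1 (1900 of 20088), 3 (2068 of 20215) or 4 (2178 of 20303). The count at an unadjusted p under 0.05 was 4 without nDA replicate 3 (4005 of all 20215 genes).

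The same comparison was made in other genes of these pathways, of which 76 of a list of 78 were found by symbol (not Riox1 and Riox2). Cecr2, a bromodomain reader, had 0 counts in every FT DA library and stood at 8.85 ± 1.59 CPM in nDA libraries. It entered this comparison through its nDA libraries alone, and is left out of the counts here. Of the other 75, 7 passed the adjusted threshold, 1 higher and 6 lower in DA nuclei, against 12.8% of all genes, so the share called was not above that of other genes. With the replicate number as a block 1 of the 75 passed, Baz2b (log2 fold change -1.20, SE 0.21, edgeR adjusted p 0.0304), against 3.92% of all genes. The other 6 then had edgeR adjusted p-values from 0.0505 to 0.132, so their calls were lost. Without the block 57 of the 75 were lower in the fit, against 58.3% of all genes, with a median log2 fold change of -0.48 against -0.21. The distance to all genes did not hold: 61 of the 75 were lower with the block, against 68.8% of all genes, and the medians were -0.58 against -0.60. With limma-voom the medians were -0.54 against -0.63. The values that follow are from the fit without the block. The higher gene was Morf4l1, a chromodomain subunit of the Kat5 complex, at 173 ± 25.1 CPM in DA and 101 ± 15.2 CPM in nDA nuclei (log2 fold change 0.75, edgeR adjusted p 0.0239). Of 11 COMPASS partners 3 were lower: Paxip1 at 16.9 ± 6.36 against 51.3 ± 8.13 CPM (log2 fold change -1.62, edgeR adjusted p 0.0139), Pagr1a at 59.3 ± 12.8 against 105 ± 10.8 CPM (-0.85, 0.0239), and Hcfc1 at 14.1 ± 12.5 against 65.6 ± 12.2 CPM (-2.23, 0.0416). Paxip1 and Pagr1a are known as subunits of the Kmt2c and Kmt2d complexes. Of 43 partners of the acetyltransferases, Ncoa3 (-1.04, edgeR adjusted p 0.0349) and Mrgbp (-1.39, 0.0450) were lower. Of the bromodomain readers, Baz2b (-1.13, edgeR adjusted p 0.0253) was lower. None of the 13 other demethylases and partners tested passed, with 1 at an unadjusted p under 0.05.

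The second comparison asked what differed in DA nuclei after cocaine maintenance, against food training. By edgeR's quasi-likelihood test 0 of the 38 genes passed, and 0.131% of all 19060 genes did. DESeq2 also called 0 of the 38, and 5.13% of all genes. By limma-voom it was 0 of the 38 and 9 of all 19060 genes. At an unadjusted p under 0.05 there were 5 of the 38 genes, against 11.6% of all genes. Crebbp, Setd1b and Dpy30 were higher (4.88% of all genes) and Kdm2a and Kdm4b lower (6.74%) at maintenance. In the fit 16 of the 38 genes were higher and 22 lower, with a median log2 fold change of -0.06, against 50.4% of all genes lower and a median of -0.01. The median of the 38 had no stable sign: it was -0.37 without MN replicate 2, where that of all genes was -0.11, and 0.07 without MN replicate 1. The 8 oligodendrocyte genes summed to 1114 to 1674 CPM in MN libraries, below the 1720 to 2791 CPM of every FT DA library, with Olig1 at 0 in at least 1 MN library. In CRV libraries they summed to 1164 to 2020 CPM. The part of this shift in the stage differences was not tested. The count of 5 was 1 without MN replicate 1 (1826 of all 20293 genes) or 3 (1659 of 20300). It was 3 without FT DA replicate 1 (2100 of 18793) or 4 (2190 of 18710).

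Crebbp stood at 218, 269 and 286 CPM in MN replicates 1 to 3, and at 115, 152, 208 and 145 CPM in FT DA replicates 1 to 4. All 3 MN libraries lay above all 4 FT DA libraries. The log2 fold change was 0.74 (SE 0.28, edgeR adjusted p 0.383). Setd1b, one of the SET1 enzymes that carry out most trimethylation of lysine 4, stood at 86.6, 61.5 and 80.7 CPM in MN and at 30.7, 13.4, 39.6 and 49.3 CPM in FT DA libraries, without overlap (log2 fold change 1.20, SE 0.50, edgeR adjusted p 0.399). Dpy30 stood at 47.7, 40.7 and 40.1 CPM in MN and at 29.4, 31.1, 12.7 and 22.5 CPM in FT DA libraries, also without overlap (log2 fold change 0.84, SE 0.37, edgeR adjusted p 0.409). These 3 were the genes of the 38 whose MN and FT DA libraries did not overlap, all with the MN libraries higher. Of all genes 8.49% did not overlap, 4.28% with MN libraries higher and 4.21% lower.

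Kdm2a, a CpG-binding demethylase of lysine 36, stood at 36.8, 58.7 and 37.7 CPM in MN and at 53.3, 64.4, 84.0 and 90.1 CPM in FT DA libraries. MN replicate 2 lay among the FT DA libraries and the other 2 below them (log2 fold change -0.72, SE 0.29, edgeR adjusted p 0.396). Kdm4b stood at 4.40, 32.2 and 19.5 CPM in MN and at 72.4, 36.5, 37.6 and 30.9 CPM in FT DA libraries, with MN replicate 2 inside the FT DA range (log2 fold change -1.25, SE 0.56, edgeR adjusted p 0.418). The value was -0.78 without MN replicate 1 and -1.91 without MN replicate 2. Among the other roles the lowest p was that of Setd7, a methyltransferase of lysine 4, at 24.64 ± 11.02 CPM (SD, n = 3) in MN and 42.5 ± 10.6 CPM (n = 4) in FT DA libraries (log2 fold change -0.79, SE 0.38).

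**Figure D4:**
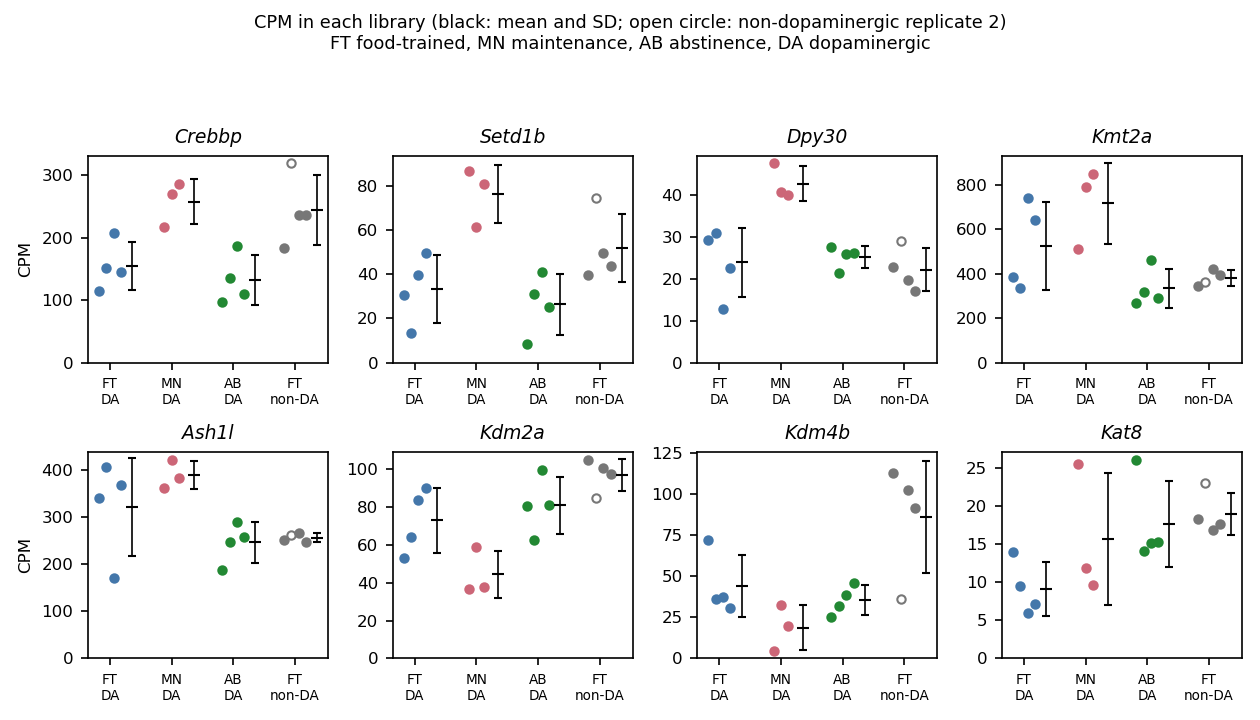
CPM of 8 genes in each library of the 4 groups, with the mean and SD in black and nDA replicate 2 as an open circle. The 3 maintenance libraries lie above the 8 other DA libraries for Crebbp, Setd1b and Dpy30, and nDA replicate 2 lies above the other 3 nDA libraries for the same 3 genes.

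In 3 of the 38 genes the MN libraries lay outside the range of all 8 other DA libraries, and 4.13% of all genes tested did so. They were again Crebbp, Setd1b and Dpy30, and the count was 5 without MN replicate 1 (8.33% of all genes) and 8 without MN replicate 2 (10.5%). In all 3 genes nDA replicate 2, which shared the GC slope of the MN libraries but came from food-trained mice, was also higher than the other 3 nDA libraries. It had Crebbp at 319 against 184 to 237 CPM, Setd1b at 74.3 against 39.7 to 49.4 CPM and Dpy30 at 29.0 against 17.1 to 23.0 CPM. Over all genes nDA replicate 2 lay on the same side in 646 of 788 (82.0%).

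A fit of all 15 libraries with a term shared by the 3 MN libraries and nDA replicate 2 gave the stage differences beside that library difference. The term rests on nDA replicate 2 alone. With it, 0 of the 38 genes had an unadjusted p under 0.05 between MN and FT DA nuclei, and 2.30% of all genes did. The log2 fold change of Crebbp was 0.19 (SE 0.47), that of Setd1b 0.45 (SE 0.85) and that of Dpy30 0.30 (SE 0.60). Kdm2a had -0.47 (SE 0.44), and Kdm4b was on the other side at 0.25 (SE 0.89). With a straight-line correction for GC content in each DA library instead, Crebbp had 0.81 (SE 0.27) and Setd1b 1.57 (SE 0.47), while Dpy30 had 0.58 (SE 0.37). Whether the MN libraries differ by cocaine or by how the libraries were made cannot be told apart for these genes.

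**Figure D5:**
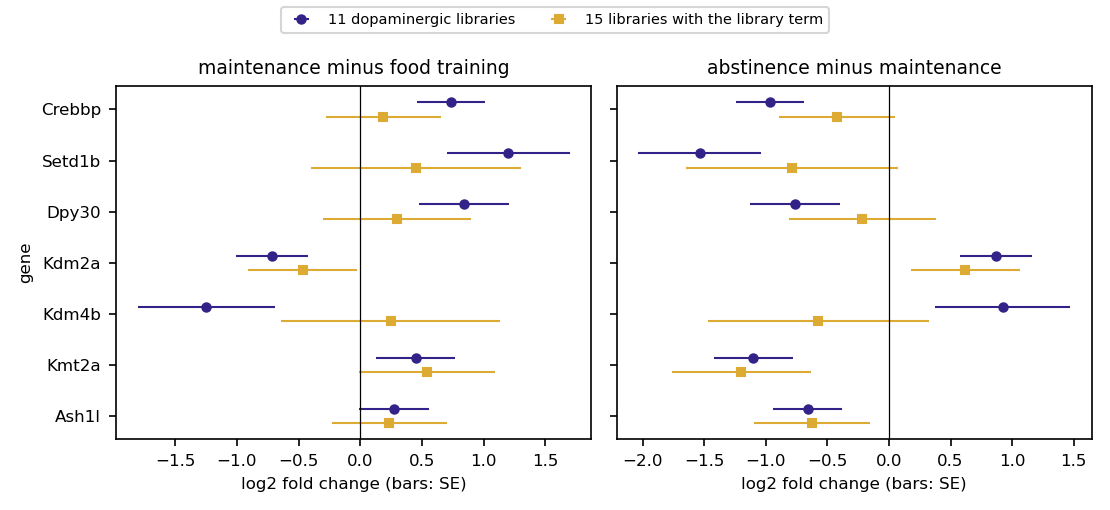
Log2 fold change (horizontal axis, bars for the standard error) of 7 genes at maintenance minus food training (left) and abstinence minus maintenance (right), from the fit of 11 DA libraries (circles) and from the fit of 15 libraries with a term for the 3 maintenance libraries and nDA replicate 2 (squares). With the term, Crebbp at maintenance goes from 0.74 to 0.19, while Kmt2a at abstinence goes from -1.10 to -1.20.

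The third comparison set abstinence against food training. By edgeR 0 of the 38 genes passed, and 0.0% of all genes did. DESeq2 also called 0 of the 38, and 0.735% of all genes, while limma-voom called 0 of the 38 and 0 of all genes. At an unadjusted p under 0.05 there was 1 gene, Kmt2a, lower at abstinence, against 4.30% of all genes (1.07% lower and 3.23% higher). It stood at 269, 315.5, 459 and 288 CPM in CRV replicates 1 to 4 and at 383, 336, 740 and 640 CPM in FT DA replicates 1 to 4. The groups overlapped, with CRV replicate 3 above FT DA replicates 1 and 2. The log2 fold change was -0.66 (SE 0.30, edgeR adjusted p 0.999974), and the count was 0 without CRV replicate 1 or 2, FT DA replicate 4, or MN replicate 2 or 3. Over all genes these fits gave from 604 of 18643 (without CRV replicate 2) to 1179 of 18710 (without FT DA replicate 4).

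In the fit 17 of the 38 genes were higher and 21 lower at abstinence than after food training, with a median log2 fold change of -0.04, against 46.9% of all genes lower and a median of 0.04, and the median of the 38 ran from -0.10 to 0.05 when 1 library was left out. Kat8 was the 1 gene whose groups did not overlap, with the CRV libraries higher. Of all genes 3.32% did not overlap, 2.37% with CRV higher and 0.955% lower. It stood at 26.0, 14.1, 15.1 and 15.2 CPM in CRV and at 13.9, 9.46, 5.91 and 7.17 CPM in FT DA replicates 1 to 4, a log2 fold change of 0.95 (SE 0.55). CRV replicate 1 was high and the other 3 were close to the top FT DA library. Its relative Kat6a had the largest log2 fold change, 1.177 (SE 0.64), from 44.6, 18.1, 17.5 and 5.95 CPM in CRV and 15.6, 3.62, 7.23 and 11.5 CPM in FT DA libraries, which overlapped. Of the 5 MYST enzymes 4 were higher in the fit, where 46.9% of all genes were lower. By edgeR 0 of the 5 had an unadjusted p under 0.05, a level reached by 4.30% of all genes.

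The fourth comparison set abstinence against maintenance. By edgeR 0 of the 38 genes passed, and 0.178% of all genes did. DESeq2 called 2 of the 38, Kmt2a (log2 fold change -1.13, DESeq2 adjusted p 0.0115) and Crebbp (-0.995, 0.0195), a share near the 4.16% of all genes that DESeq2 called. By limma-voom 0 of the 38 passed, and 30 of all 19060 genes did. At an unadjusted p under 0.05 in edgeR there were 5 of the 38, against 9.92% of all genes: Crebbp, Kmt2a, Setd1b and Ash1l were lower at abstinence (2.59% of all genes) and Kdm2a was higher (7.33%). In the fit 25 of the 38 genes were higher at abstinence and 13 lower, with a median log2 fold change of 0.19, against 47.2% of all genes lower and a median of 0.05. The median of the 38 went from 0.13 without MN replicate 1 to 0.41 without MN replicate 2, where that of all genes was 0.19. With the library term of the maintenance comparison the median of the 38 was -0.12 and that of all genes 0.15. This comparison shares the MN libraries with the second, so a gene that is high in them alone differs in both.

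Crebbp stood at 96.1, 136, 187 and 109 CPM in CRV replicates 1 to 4, all below the 218 to 286 CPM of the MN libraries (log2 fold change -0.97, SE 0.28, edgeR adjusted p 0.266). Kmt2a, at 269 to 459 CPM in CRV, stood at 509.5, 787 and 850 CPM in MN replicates 1 to 3, without overlap (log2 fold change -1.10, SE 0.32, edgeR adjusted p 0.271). Setd1b stood at 8.29, 30.9, 41.1 and 25.1 CPM in CRV libraries, all below the MN libraries (log2 fold change -1.54, SE 0.50, edgeR adjusted p 0.356). These genes encode a KAT3 acetyltransferase and a pair of lysine 4 methyltransferases. Their families did not move together: of the 6 KMT2 and SET1 enzymes 3 were higher and 3 lower in the fit. Ep300, the other KAT3 enzyme, had a log2 fold change of 0.04 (SE 0.38).

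Ash1l stood at 188, 247, 290 and 258 CPM in CRV replicates 1 to 4 and at 362, 421 and 383 CPM in MN replicates 1 to 3, without overlap (log2 fold change -0.66, SE 0.28, edgeR adjusted p 0.491). Kdm2a stood at 80.7, 62.5, 99.7 and 81.3 CPM in CRV libraries, all above the 36.8 to 58.7 CPM of the MN libraries (log2 fold change 0.87, SE 0.29, edgeR adjusted p 0.382). In all, 7 of the 38 genes had groups without overlap, 5 lower and 2 higher at abstinence, against 12.1% of all genes (4.58% lower and 7.56% higher). The others were Dpy30, lower, and Ash2l, higher. Dpy30 stood at 27.7, 21.5, 26.0 and 26.1 CPM in CRV libraries, and Ash2l at 50.5, 63.6, 47.5 and 66.8 CPM in CRV against 43.7, 28.8 and 24.0 CPM in MN libraries.

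With the term for the MN libraries and nDA replicate 2, 0 of the 38 genes had an unadjusted p under 0.05 between abstinence and maintenance, and 2.599% of all genes did. Kmt2a then had a log2 fold change of -1.20, with the SE going from 0.32 to 0.56, and that of Ash1l -0.63, with the SE going from 0.28 to 0.47. Crebbp had -0.42 (SE 0.47), Setd1b -0.79 (SE 0.86) and Kdm2a 0.62 (SE 0.44). For Kmt2a and Ash1l, nDA replicate 2 stood at 362 and 261 CPM, within the 344 to 420 and 246 to 266 CPM of the other 3 nDA libraries. The term rests on that 1 library, and whether the library difference had a part in these values was not tested further.

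A test for any difference among the 3 stages gave 0 of the 38 genes past the adjusted threshold, against 0.0839% of all genes, by edgeR. It also gave 0 by DESeq2, which called 1.78% of all genes, and 0 by limma-voom, which called 12 of 19060 genes. At an unadjusted p under 0.05 there were 4, Crebbp, Kmt2a, Setd1b and Kdm2a, against 7.85% of all genes. The count was 2 without MN replicate 1 (1426 of all 20293 genes) or 3 (1319 of 20300).

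Among the 75 other genes of these pathways, again without Cecr2, 0 passed in any stage comparison by edgeR. At an unadjusted p under 0.05 there were 8 of 75 at maintenance against food training (11.6% of all genes), 3 at abstinence against food training (4.30% of all genes) and 5 at abstinence against maintenance (9.92% of all genes). These shares were near or below those of all genes. The lowest p-values between maintenance and food training belonged to partners of the Kat5 and Kat8 complexes and of COMPASS. Phf20, a subunit of the Kat8 complex, stood at 134 ± 23.9 CPM (SD, n = 3) in MN and 58.3 ± 17.3 CPM (n = 4) in FT DA libraries (log2 fold change 1.20, edgeR adjusted p 0.104). Ep400, the motor protein of the Kat5 complex, stood at 63.0 ± 9.30 CPM in MN and 127 ± 19.1 CPM in FT DA libraries (-1.005, edgeR adjusted p 0.120), and Paxip1 at 45.4 ± 14.2 CPM in MN and 16.9 ± 6.36 CPM in FT DA libraries (1.43, edgeR adjusted p 0.229). At abstinence Phf20 stood at 67.0 ± 5.82 CPM and Ep400 at 103 ± 7.62 CPM, on the FT DA side of the MN values. Paxip1 stood at 32.1 ± 3.46 CPM, between the MN and FT DA values, with a log2 fold change of 0.92 against food training. Epc1, another subunit of the Kat5 complex, had the lowest p between abstinence and food training, at 63.5 ± 12.0 CPM in CRV and 33.2 ± 15.1 CPM in FT DA libraries (0.94, edgeR adjusted p 0.999974). Over these 75 genes the median log2 fold change was 0.11 between maintenance and food training, 0.08 between abstinence and food training and 0.13 between abstinence and maintenance.

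Over the 15 libraries, the gene whose log2 CPM was most like that of Crebbp was Setd1b (Pearson r 0.796), followed by Kmt2a (0.585) and Kat6b (0.462). For Kmt2a the order was Setd1b (0.644), Crebbp (0.585) and Ash1l (0.374). For Kdm3a it was Kmt2c (0.808), Kdm3b (0.735) and Kdm6a (0.697). The libraries share their groups, populations and GC slopes, so these values only describe which profiles lie close together.

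Kdm5c, Kdm6a and Phf8 are X-linked, and Kdm5c and Kdm6a have relatives on the Y chromosome that the count table also lists. Kdm5d, the Y-linked relative of Kdm5c, stood at 72.7 ± 24.8 CPM in FT DA, 72.7 ± 19.8 in MN, 64.2 ± 17.6 in CRV and 51.8 ± 5.98 CPM in nDA libraries. Kdm5c itself stood at 52.3 ± 24.3, 31.2 ± 16.6, 48.8 ± 13.3 and 67.3 ± 18.7 CPM in the same groups. Uty, the Y-linked relative of Kdm6a, stood at 48.1 ± 23.1, 52.2 ± 19.996, 53.6 ± 10.0 and 52.0 ± 7.80 CPM, and Kdm6a at 34.5 ± 2.07, 31.4 ± 8.66, 45.1 ± 14.5 and 43.2 ± 5.48 CPM. For each of these genes the libraries of the DA groups overlapped between stages.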

How the data were processed

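The authors deposited whole-number counts per gene for 15 libraries (35976 genes, 25813697 to 59046618 counts a library). A second deposited table, named as normalized, held the same counts in its 10 columns (0 cells differed) and was not used. The submitters' processing notes name Trim Galore 0.6.7, cutadapt 1.18, STAR 2.7.10a, StringTie 2.1.5, DESeq2 1.38.3 and the builds mm10 and GRCm38, and the use of strand is not given in the sources used here, so overlapping genes are uncertain. Counts are PCR reads without molecular identifiers, so their number covers counting error only.

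From these counts, genes were kept by filterByExpr and scaled by TMM, and groups were compared with edgeR 4.0.16 (quasi-likelihood F-test, two-sided, Benjamini-Hochberg adjustment over all genes tested, threshold 0.05) in R 4.3.3. The population comparison used 8 food-trained libraries (19786 genes), and the stage comparisons used 11 dopaminergic libraries in one fit (19060 genes). CPM uses TMM factors of all 15 libraries, and log2 CPM a prior count of 2. Coordinates are RefSeq GRCm38.p6, and GC content and length are from GENCODE M21 transcripts (38 of 38 genes). Alternatives were DESeq2 1.42.0 (test and size factors), limma 3.58.1 (voom with quality weights), upper quartile scaling, no filter beyond 1 count, all 15 libraries in one fit, a GC offset, a library term, a replicate block, and leaving out each library. The scripts were tested on simulated data.

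Deviations of same-numbered DA and nDA libraries from their group means correlated at 0.116, 0.127, 0.262 and 0.242 over 8535 genes. Those of differently numbered libraries ran from -0.184 to 0.146, the highest for FT DA replicate 4 and nDA replicate 1. That value lies above the 0.116 and 0.127 of replicates 1 and 2. The labels do not say that the numbers pair these libraries. The correlations do not settle it, so the block was fitted as an alternative. Nothing in the labels says whether samples were separate in every step, so p-values measure the spread between these samples.

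The 38 genes, the lists and the tests were chosen with earlier results of these data known. The text names, in each comparison, genes with an unadjusted p under 0.05, the lowest p of a role group, and genes whose groups do not overlap or that stand at the end of an order. The last were chosen after their values were seen.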

Additional observations from a re-analysis of the deposited data

Results flagged for a closer look

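In 7 of 114 groups of 4 libraries, 1 library lay far from the other 3 by Dixon's test of the gap over the range, and chance gives about 1 in 20. Ep300 stood at 23.86 CPM in FT DA replicate 3, against 48.1 to 48.3 CPM in the other 3. Kdm4b stood at 72.41 CPM in FT DA replicate 1, against 30.9 to 37.6 CPM. In the abstinence group Kat8 stood at 26.05 CPM in replicate 1 (others 14.1 to 15.2), Rbbp5 at 41.81 CPM in replicate 1 (35.6 to 36.6), Setd7 at 24.92 CPM in replicate 2 (38.0045 to 38.6) and Kdm4c at 101.2 CPM in replicate 4 (56.9 to 58.5). Kdm4c also stood at 60.85 CPM in nDA replicate 1, against 63.2 to 63.4 CPM.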

How the results depend on the processing

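Between populations, the count of 38 genes past the adjusted threshold went from 1 to 0 with DESeq2 size factors, upper quartile scaling, the replicate block and the block with the GC offset, and to 4 with the DESeq2 test (Kdm3a, Kat2a, Kat6a and Kat8). With all 15 libraries in one fit it stayed 1, but the gene was Kat2a and not Kdm3a. Leaving out each library gave 0 to 4, and 4 to 12 at an unadjusted p under 0.05. The count without overlap was 3 with upper quartile scaling and 6 to 13 leaving out a library. Between maintenance and food training, the count at an unadjusted p under 0.05 went from 5 to 0 with the library term and to 2 with the block, with or without the GC offset, and to 1 to 7 leaving out a library. Kdm4b turned from -1.25 to 0.25 with the library term. Between abstinence and food training the count went from 1 to 3 with all 15 libraries in one fit and to 0 with the block (0 to 1 leaving out a library). Between abstinence and maintenance, the DESeq2 test called 2 against 0, and the unadjusted count went from 5 to 0 with the library term and to 8 with limma-voom (4 to 6 leaving out a library). For any stage difference it was 2 to 6 leaving out a library, and the count of genes with all MN libraries outside the other DA libraries was 3 to 8. Of 191 values of named genes under other settings, 179 kept their direction and side of the adjusted threshold, and of 193 leaving out a library 181 did. Kdm3a was the only gene called in the main fits, so for the others the side kept was that of no call. The Kdm3a call was lost under 5 other settings and in 6 fits that leave out a library. Over all genes, the calls between populations went from 2534 to 775 with the block, 3883 with the DESeq2 test and 4266 with limma-voom. Those between maintenance and food training went from 25 to 0 with the block, 9 with limma-voom and 977 with the DESeq2 test, and those between abstinence and maintenance from 34 to 2, 30 and 793 in the same order. The library term was fitted on 15 libraries and 21812 genes, where these counts were 18 and 15 without it and 0 and 1 with it. The cause of these shifts was not tested.

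Replicate numbers were shared between stages, but same-numbered libraries did not deviate together there (correlations from -0.351 to 0.109), so the block between stages says nothing firm. With 3 or 4 libraries a group and coefficients of variation near 36.2% in FT DA nuclei, edgeR and limma-voom separated none of the stage differences of the 38 genes from replicate spread after adjustment over all genes, while the DESeq2 test called Kmt2a and Crebbp between abstinence and maintenance.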
